A study of Homo sapiens with 8 samples.

Results

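FAM111B, ZNF367 and WDR76 are 3 genes chosen by their measured log2 changes, because their RNA was far lower in fibroblasts exposed to Nutlin-3a for 6 h than in DMSO-treated cells, and lower again at 12 h. FAM111A, the paralog of FAM111B, was added by name and not for its own change. The 4 genes are 4 of 18216 in the deposited table, and each had at least 10 normalized counts in every library, so the filter on low values left all 4 in. The falls of FAM111B, ZNF367 and WDR76 against DMSO are what they were picked for, so their values are given as a description with no test. FAM111A was tested.

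A normalized count is the number of reads of a gene divided by the size factor of its library. Differences were tested with limma on log2(normalized count + 1) over all 14074 genes that passed the filter, and a gene is called, or said to have risen or fallen, where its Benjamini-Hochberg adjusted p was under 0.05.

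The cells, at passage 28, were of the human lung fibroblast line IMR90 and were kept in 3% oxygen and 5% carbon dioxide with 10% serum. The 4 groups of 2 libraries each were DMSO, the solvent control, and Nutlin-3a at 3 µg/mL for 6, 9 or 12 h. Nutlin-3a occupies the pocket of MDM2 that holds p53, which releases p53 from this ubiquitin ligase. All groups are of the same line and passage, and no p53-deficient cells were among them. The labels state neither the time in DMSO nor whether the replicates came from separate cultures. Exposure time therefore cannot be told apart from culture or harvest time, and every p-value rests on a spread between libraries that may be technical.

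FAM111A and FAM111B encode nuclear proteases with a trypsin-like domain. FAM111A binds PCNA, the sliding clamp of DNA replication, and acts on proteins crosslinked to DNA, and its mutations cause Kenny-Caffey syndrome. Mutations of FAM111B cause hereditary fibrosing poikiloderma, a skin disease with tendon and lung fibrosis. ZNF367 encodes a zinc-finger transcription factor. WDR76 encodes a WD40-repeat protein found with the chromatin remodeller HELLS and with CUL4-DDB1 ubiquitin ligases. Genes of the G1/S transition are driven by E2F factors, and p53 lowers many of them through the CDK inhibitor p21, the RB family and the DREAM complex, which binds E2F and CHR elements.

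The promoter of ZNF367 is shown, and those of ZNF367 and FAM111A were searched, because E2F and CHR words are the elements this pathway is known for. The joint fall of FAM111B, ZNF367 and WDR76 is what they were picked for, and the part of this pathway in it was not tested. RefSeq promoter sequences (GRCh38.p14) were matched for 2 of the 4 members, with 1 start for ZNF367 and 2 for FAM111A. Each window is the 250 bases before the start. The sequence is written 5′ to 3′ on the gene's strand, and capitals mark E2F and CHR words. The ZNF367 window is chr9:96418371-96418620 on the minus strand, and the FAM111A windows are chr11:59142606-59142855 and chr11:59144612-59144861 on the plus strand. Both FAM111A windows overlap exons of other FAM111A transcripts in GENCODE release 29, so their letters are not printed, and no annotated exon overlaps the ZNF367 window. These coordinates are not those of hg19, on which the reads were handled.
ZNF367: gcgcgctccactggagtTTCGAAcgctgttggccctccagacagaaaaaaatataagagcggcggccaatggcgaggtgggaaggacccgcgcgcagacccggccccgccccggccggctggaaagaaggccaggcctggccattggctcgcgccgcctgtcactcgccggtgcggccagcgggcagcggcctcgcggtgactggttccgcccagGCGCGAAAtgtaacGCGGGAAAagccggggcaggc

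Both strands were searched for the E2F words TTTCCCGC, TTTCGCGC, TTTGCCGC and TTTGGCGC and the CHR words TTTGAA and TTCGAA. In ZNF367, E2F words lay 35 to 28 and 21 to 14 bases before the start, and a CHR word 233 to 228 bases before it. At the downstream FAM111A start, an E2F word lay 65 to 58 bases and a CHR word 92 to 87 bases before the start. The upstream FAM111A window held neither. Among all 35116 promoter windows of this length, 2.79% held at least 1 E2F word, 0.123% held 2 or more, and 14.3% held a CHR word.

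CCAAT, the box bound by NF-Y, matched at 2 places in ZNF367 and at 2 overlapping places at the downstream FAM111A start. Among all windows 32.0% held at least 1 match and 9.53% held 2 or more. GGGCGG, the SP1 word, matched at 2 places in ZNF367 and at 1 in FAM111A, where it overlapped the E2F word. For this word, 42.6% of all windows held at least 1 match and 24.3% held 2 or more. The p53 half-site pattern had no match in the 3 windows, and 5.57% of all windows held it. Within 100 bases of the start, both E2F words of ZNF367 and the E2F and CHR words of FAM111A remained, while the CHR word of ZNF367 lay outside. A match is only a run of letters in this window and says nothing of binding.

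The libraries held 21.9 to 33.6 M reads in genes (M, 1e6). Transcripts that p53 is known to induce were higher in every Nutlin-3a group, with log2 changes from DMSO at 6, 9 and 12 h of 3.47, 3.85 and 3.90 for CDKN1A, which encodes p21, and of 3.03, 3.10 and 3.13 for MDM2 (limma, adjusted p at most 1.36e-18, n = 2 per group). All 12 fibroblast markers were tested. Their summed normalized count, mostly COL1A1 and COL1A2, was 927900 to 935200 in DMSO and 899200 to 908100 at 6 h. It was 1067000 to 1078000 at 9 h and 1108000 to 1123000 at 12 h. Single marker means differed in both directions, as PDGFRA averaged 3886 at 12 h against 5272 in DMSO, and COL3A1 47410 against 42380. Of other cell types' markers, CDH1, PTPRC and CDH5 averaged at most 4.31 in every group. Some others averaged more, with group means of 21.6 to 26.3 for EPCAM, 16.7 to 34.3 for VWF and 37.3 to 95 for ROBO4. PECAM1, KRT5, KRT14, CD3E and LYZ were not among the genes with values. Summed epithelial markers, mostly CLDN4, were 365 to 401 at 12 h against 281.5 to 294 in DMSO, and immune markers, mostly CD68, 913 to 964 at 12 h against 748 to 905 in DMSO. Summed endothelial markers, almost all of it TEK, were 1493 to 1556 at 12 h against 2007 to 2114 in DMSO. Summed smooth muscle or pericyte markers, mostly CSPG4 and SMTN, were 20480 to 21030 at 12 h against 16520 to 17530 in DMSO. CSPG4 averaged 10220 at 12 h against 6900 in DMSO, and CNN1 2613 against 3179. No marker with values was at 0 in every library. The part of these markers in the results was not tested. The log2 difference between replicates had an SD of 0.119 to 0.129 in the Nutlin-3a pairs, against 0.174 in DMSO, over 11461 genes.

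FAM111B, the fibrosis-linked protease on chromosome 11, had the largest fall at 6 h among the 11461 tested genes with a mean of at least 50. Its normalized counts were 965 and 1013 in the DMSO libraries (replicates 1 and 2), 189 and 174 at 6 h, 76.7 and 84.0 at 9 h and 72.8 and 62.4 at 12 h. All 6 Nutlin-3a libraries lay far below both DMSO libraries, and each later group lay wholly below the one before it. The 9 and 12 h groups were close, however. The exact Poisson 95% interval of 9 h replicate 1, 60.5 to 95.8 normalized counts, covered both 12 h values. That of 9 h replicate 2, 67.8 to 103, covered 72.8 but not 62.4. The order of the 9 and 12 h groups may therefore be counting error. As means, 181 ± 10.6 at 6 h, 80.4 ± 5.21 at 9 h and 67.6 ± 7.36 at 12 h stood against 989 ± 34.2 in DMSO (SD, n = 2). That left 18.3, 8.13 and 6.84% of the DMSO mean. The log2 change from DMSO was −2.44 ± 0.12 at 6 h, −3.61 ± 0.12 at 9 h and −3.85 ± 0.12 at 12 h (standard error). Ranked from the lowest change among those genes, FAM111B stood at 1 at 6 h and at 3 at both later times. In bulk RNA, fewer cells that express a gene and less of its RNA per cell cannot be told apart.

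ZNF367, the zinc-finger factor whose promoter window above holds 2 E2F words, had normalized counts of 687 and 781 in DMSO, 150.1 and 158 at 6 h, 59.7 and 53.9 at 9 h and 39.3 and 54.1 at 12 h. The Nutlin-3a libraries lay far below both DMSO libraries, and the 9 and 12 h groups overlapped. The 12 h values rest on 48 and 52 reads, the fewest of the 4 genes, with exact Poisson 95% intervals of 28.97 to 52.1 and 40.4 to 71.0 normalized counts that cover counting error only. Means of 154 ± 5.30, 56.8 ± 4.14 and 46.7 ± 10.5 at 6, 9 and 12 h, against 734 ± 66.4 in DMSO (SD, n = 2), correspond to 21.0, 7.74 and 6.36% of DMSO. The log2 changes were −2.24, −3.67 and −3.96 (standard error 0.15 each), and ZNF367 ranked 2 at 6 h and 1 at both 9 and 12 h. These ranks, like those of FAM111B, leave out genes with a mean under 50, which can include genes that fell to few reads. One such gene, E2F2, named after its values were seen, had lower changes of −2.82, −3.77 and −4.33 (standard error 0.46 each).

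WDR76, the WD40 protein, which lies on chromosome 15, had normalized counts of 1371 and 1407 in DMSO, 397 and 379 at 6 h, 165 and 184 at 9 h and 171 and 139 at 12 h. It kept more of its level than FAM111B and ZNF367 did, and its 9 and 12 h libraries overlapped. Means of 388 ± 12.7, 174 ± 13.0 and 155 ± 22.4 at 6, 9 and 12 h, against 1389 ± 25.5 in DMSO (SD, n = 2), were 27.9, 12.6 and 11.2% of DMSO. Its log2 changes were −1.84, −2.99 and −3.16 (standard error 0.10 each), with ranks of 10, 4 and 7.

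**Figure D1:**
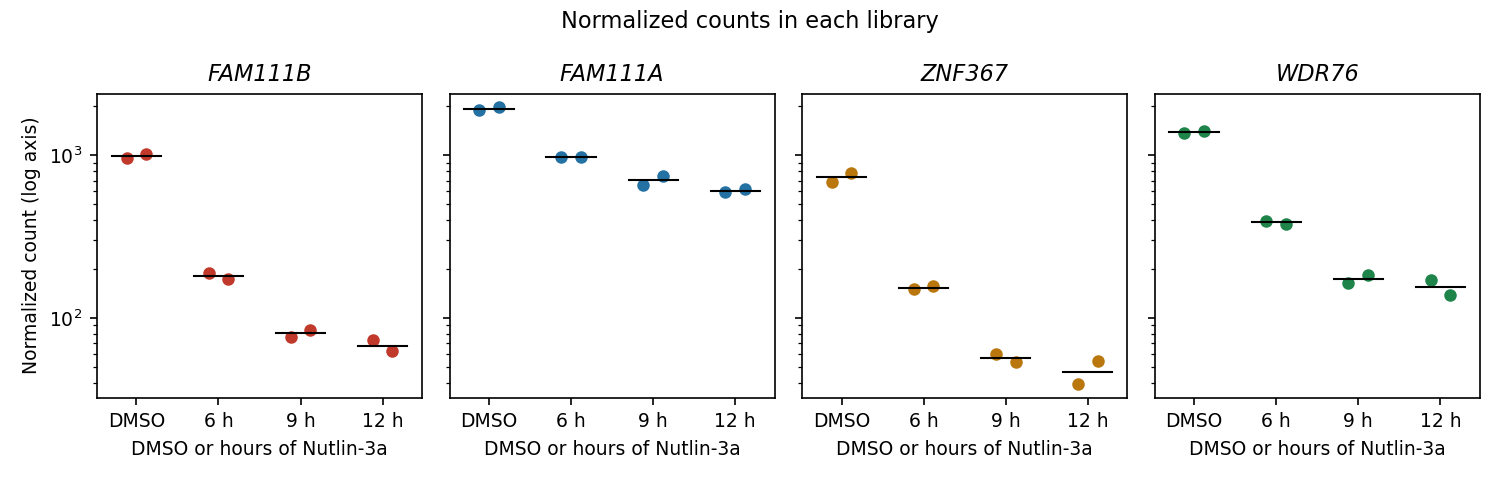
Normalized count (log axis) of the 4 genes in each of the 8 libraries, by group: points are libraries (replicate 1 left of 2) and lines group means. FAM111B, ZNF367 and WDR76 lie at 62.4 to 84.0, 39.3 to 59.7 and 139 to 184 at 9 and 12 h, while FAM111A stays at 595 or above.

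FAM111A, the PCNA-binding protease, also fell at each time, less far than its paralog in these values. Its normalized counts were 1910 and 1976 in DMSO, 972 and 974 at 6 h, 662 and 744 at 9 h and 595 and 619 at 12 h. Every group lay wholly below the one before it. Means of 973 ± 1.76, 703 ± 57.6 and 607 ± 17.1, against 1943 ± 46.5 in DMSO (SD, n = 2), were 50.1, 36.2 and 31.2% of DMSO. The log2 change was −0.997 ± 0.067 at 6 h (limma, adjusted p = 3.16e-10), −1.47 ± 0.07 at 9 h (3.43e-13) and −1.68 ± 0.07 at 12 h (2.10e-14). Falls were common in these comparisons, with 20.6, 19.1 and 21.4% of 14074 tested genes called lower, but FAM111A ranked 142, 135 and 194 of 11461 by size.

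FAM111A fell further between times. Between 6 and 9 h the log2 change was −0.47 ± 0.07 (limma, adjusted p = 3.32e-05, with 9.90% of genes called lower), and between 6 and 12 h −0.68 ± 0.07 (adjusted p = 1.10e-07, 17.1% called lower). The 12 h group was not called against the 9 h group (−0.21 ± 0.07, adjusted p = 0.0966, 2.92% called lower). That share varied with the fit. Over all genes 411 were called lower here, 144 with no intensity trend and 858 in a fit of only the 2 groups. That last comparison was called in 4 of 20 alternatives, with a fit of only the 2 groups (adjusted p = 0.0328), without DMSO replicate 1 (0.0154) or 2 (0.0151), and with group quality weights (0.0160).

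The 2 paralogs stand next to each other on chromosome 11, on the same strand, 15.3 kb apart in GENCODE release 29 (GRCh38), and the gap holds AP001258.1 and most of FAM111A-DT, a divergent non-coding transcript that runs into the start of FAM111A. They share 0 words of 50 bases between their annotated transcripts, so reads of that length could not be split between them. For each 100 normalized counts of FAM111A, FAM111B had 50.5 and 51.3 in DMSO, 19.4 and 17.9 at 6 h, 11.6 and 11.3 at 9 h and 12.2 and 10.1 at 12 h. The ratio was lower in all 6 Nutlin-3a libraries than in both DMSO libraries, and the 9 and 12 h values overlapped. Since FAM111B was picked for its fall, this ratio is a description with no test.

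**Figure D2:**
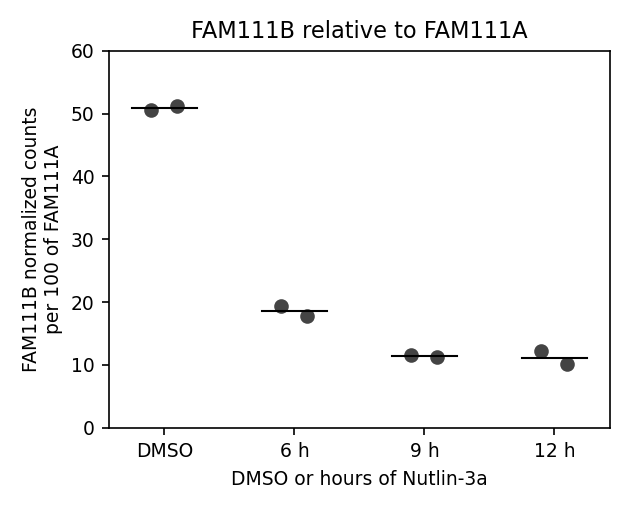
FAM111B normalized counts per 100 of FAM111A in each library (points) with group means (lines). The Nutlin-3a libraries sit between 10.1 and 19.4 and the DMSO libraries at 50.5 and 51.3.

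Per kb of annotated exon, DMSO levels were 341 ± 6.25 normalized counts for WDR76, 269 ± 6.44 for FAM111A, 256 ± 8.85 for FAM111B and 201 ± 18.2 for ZNF367 (SD, n = 2). In this order the mean ± SD ranges of FAM111A and FAM111B overlapped. At 12 h the order was FAM111A at 84.1 ± 2.36, WDR76 at 38.1 ± 5.48, FAM111B at 17.5 ± 1.91 and ZNF367 at 12.8 ± 2.88, and those of the last 2 overlapped. The lengths join all annotated isoforms (7221 bases for FAM111A, 3646 to 4078 for the others), and the isoforms in use were not measured.

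Most of the fall was in place by 9 h. At 6 h the log2 change had reached 63.3% of its 12 h size for FAM111B, 56.7% for ZNF367, 58.2% for WDR76 and 59.4% for FAM111A. At 9 h it had reached 93.6, 92.6, 94.5 and 87.5%. Between 6 and 9 h the log2 change per hour was −0.47 for ZNF367, −0.39 for FAM111B, −0.38 for WDR76 and −0.16 for FAM111A. Between 9 and 12 h it was −0.10 for ZNF367, −0.08 for FAM111B, −0.06 for WDR76 and −0.07 for FAM111A. For ZNF367 and WDR76 the 9 to 12 h change (−0.29 and −0.17) is the difference between overlapping groups. One library decided its size, since it was −0.07 for ZNF367 without 12 h replicate 1 and −0.52 without replicate 2, and −0.32 and −0.03 for WDR76. For FAM111B, −0.25 became −0.36 without 12 h replicate 1 and −0.14 without replicate 2.

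**Figure D3:**
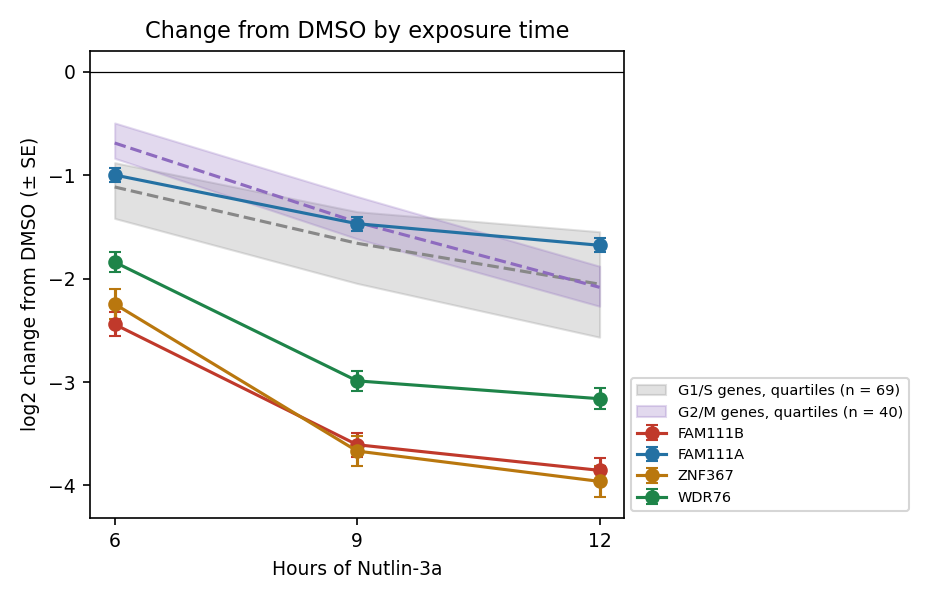
log2 change from DMSO (± standard error) of the 4 genes against hours of Nutlin-3a, with the quartiles (bands) and medians (dashed) of 69 G1/S and 40 G2/M genes. FAM111B, ZNF367 and WDR76 run below both bands, from −1.84 to −2.44 at 6 h and from −3.16 to −3.96 at 12 h.

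The 6 h shares of all 4 genes lay above the quartiles of G2/M genes, as a description. Among 69 tested G1/S and replication genes, all with a called fall at 12 h, the median share of the 12 h change reached was 55.2% at 6 h (quartiles 48.4 and 63.7%) and 82.1% at 9 h (77.5 and 90.2%). Among 40 G2/M genes it was 32.4% at 6 h (26.2 and 37.0%) and 66.4% at 9 h (65.0 and 71.8%).

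Of the 69 G1/S genes, 66, 67 and 69 were lower at 6, 9 and 12 h, against 20.6, 19.1 and 21.4% of all tested genes. The median log2 changes of the G1/S genes were −1.11, −1.66 and −2.05, against −0.01, 0.01 and 0.01 over all genes tested. RRM2, a ribonucleotide reductase subunit, fell (log2 changes of −0.82, −1.59 and −2.17), ATAD2, a bromodomain ATPase, had −1.28, −2.18 and −2.61, and MCM3, a helicase subunit, had −1.33, −2.09 and −2.49. Of these genes, 44, 44 and 50 fell further than FAM111A at 6, 9 and 12 h, while 1, 2 and 2 had a lower value than FAM111B, 1 at each time than ZNF367, and 8, 2 and 4 than WDR76. E2F2, an activator E2F named here after its values were seen, had the lowest change, −4.33 ± 0.46 at 12 h, with only 5.28 ± 2.84 normalized counts at 12 h against 119 ± 2.14 in DMSO (SD, n = 2). Also named after its values were seen, the repressor E2F7 was the 1 member called higher at 6 h (0.57 ± 0.06), and it was lower at 12 h (−0.29 ± 0.06).

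Of 40 tested G2/M genes, 39, 40 and 40 were lower, against 20.6, 19.1 and 21.4% of all tested genes. The medians of the G2/M genes were −0.69, −1.45 and −2.08. MKI67, which encodes the Ki-67 antigen of dividing cells, fell (log2 changes of −0.85, −1.68 and −2.52), ASPM, a spindle pole protein, had −0.76, −1.74 and −2.30, and CCNA2 (cyclin A2) had −0.95, −1.80 and −2.38. Of the 40, 3 fell further than FAM111A at 6 h, 19 at 9 h and 34 at 12 h, and none fell as far as FAM111B, ZNF367 or WDR76 at any of these times. Both lists moved with the members in the same libraries.

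The profiles most like each member were found by the root mean square (RMS) difference of log2 change over the 8 libraries, among 11461 genes. This likeness is a description, and all profiles share the same libraries and DMSO mean. FAM111B and ZNF367 had the same nearest gene, CCNE2 (cyclin E2), at RMS 0.208 and 0.187, and were next to each other at 0.222. E2F8, a repressor E2F, and WDR76 followed for both, at 0.463 and 0.554 from FAM111B and at 0.492 and 0.599 from ZNF367. CCNE2 had log2 changes of −2.17, −3.65 and −3.68 at 6, 9 and 12 h, and E2F8 −2.14, −2.75 and −3.94.

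WDR76 was nearest to CDC6 (RMS 0.215) and ORC1 (0.310), which license origins, to DTL (0.246), a CUL4 receptor that degrades CDT1, and to MCM10 (0.248), an initiation factor. Their changes at 12 h were −3.003, −2.91, −3.07 and −3.18. FAM111A was nearest to BRIP1 (0.0580), a helicase of crosslink repair, GMNN (0.0744), the licensing inhibitor geminin, MCM5 (0.0747), a helicase subunit, and DBF4 (0.0801), the activator of CDC7 kinase. These had log2 changes at 12 h of −1.73, −1.71, −1.76 and −1.67, close to −1.68 for FAM111A. Between the paralogs the RMS was 1.69, although Pearson's r over the 8 libraries, which ignores size, was 0.995. Ranked by r instead, the 4 nearest genes of FAM111B included WDR76 (0.998), and none of the 4 of FAM111A, ZNF367 or WDR76 were among the 4 nearest by RMS.

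No other tested gene with a ZNF symbol had as low a change as ZNF367, which was picked for its fall. Of 439 others tested, 84, 51 and 47 were higher and 61, 73 and 94 lower at 6, 9 and 12 h. Of all tested genes, 16.1, 16.2 and 18.5% were called higher and 20.6, 19.1 and 21.4% lower, so the lower calls at 12 h were about as frequent as over all genes. The counts were smaller in some fits that left out 1 Nutlin-3a library, and calls over all genes were then fewer too. DESeq2 called 45, 25 and 22 ZNF genes higher at 6, 9 and 12 h. Over all genes it called 1664, 1633 and 1925 higher, against 2263, 2273 and 2603 in the main fit. The median log2 changes of the ZNF genes were 0.03, 0.03 and −0.01, and the next lowest were ZNF726 at 6 h (−1.54) and ZNF695 at 9 and 12 h (−2.32 and −3.10). Among those with a mean of at least 50, ZNF93 (−1.74 ± 0.15) and ZNF530 (−1.65 ± 0.18) had the largest called falls at 12 h, and ZNF79 (1.14 ± 0.08) and ZNF561 (0.998 ± 0.062) the largest rises.

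WDR76, also picked for its fall, was the lowest of the tested WDR genes at each time. Of 53 others tested, 7, 11 and 13 were higher and 17, 13 and 14 lower at 6, 9 and 12 h, with medians of 0.01, 0.03 and 0.04, against 16.1, 16.2 and 18.5% of all tested genes higher and 20.6, 19.1 and 21.4% lower. The higher counts at 9 and 12 h were smaller without replicate 1 of that group, as were those over all genes. WDR62, a centrosome protein, came next at each time (−0.94, −1.48 and −1.84), and WDR90, a centriole protein, was lower at 12 h (−0.94 ± 0.10). WDR63, an axonemal dynein component, rose most, to 374 ± 10.7 normalized counts at 12 h against 31.6 ± 5.13 in DMSO (SD, n = 2), a log2 change of 3.53 ± 0.12. WDR78, also of axonemal dynein, rose at 12 h (0.74 ± 0.21), a call lost without 12 h replicate 1 (0.56, adjusted p = 0.117).

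**Figure D4:**
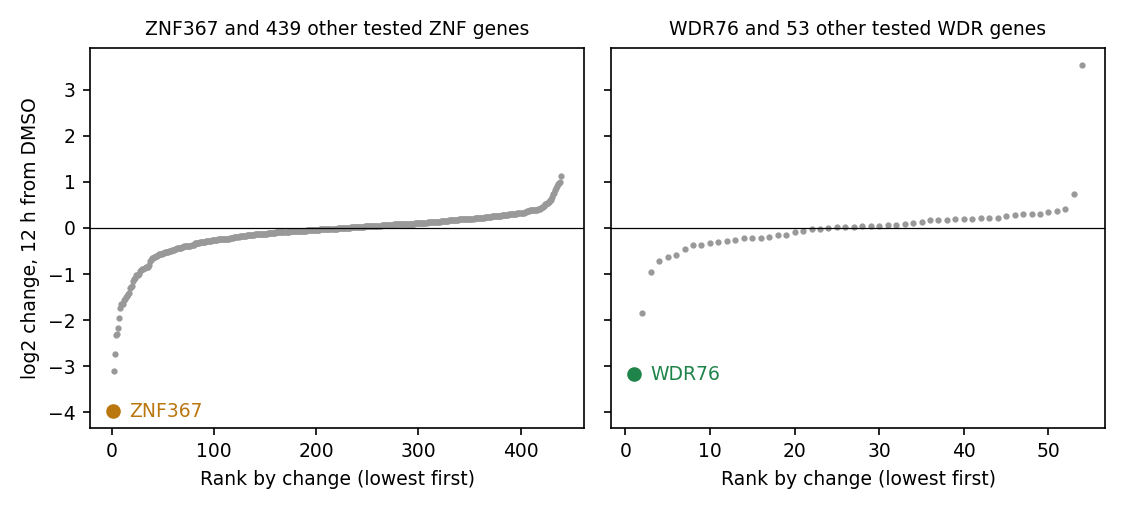
log2 change at 12 h from DMSO of all tested genes with a ZNF symbol (left) or WDR symbol (right), sorted from lowest, 1 point per gene. ZNF367 (−3.96) and WDR76 (−3.16) are the lowest points, and WDR63 (3.53) is the highest point on the right.

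PCNA and its loaders and partners, the setting in which FAM111A is known to act, were mostly lower. Of 16 genes, 13, 14 and 15 were lower at 6, 9 and 12 h (median log2 changes −0.71, −1.17 and −1.37). Over all tested genes 20.6, 19.1 and 21.4% were called lower. Of the 16, 8 are also on the G1/S or G2/M list, and of the other 8, 6, 7 and 7 were lower. FEN1, the flap endonuclease, fell (log2 changes of −1.19, −1.72 and −2.15), RFC3 had −1.19, −1.96 and −2.44, and RFC4 had −1.11, −1.61 and −1.94, both subunits of the main clamp loader. PCNA itself, named here after its values were seen, had log2 changes of 0.03, −0.08 and −0.19 and was called lower at 12 h only (adjusted p = 0.00663), a call lost without 12 h replicate 1 (−0.15, adjusted p = 0.114) and with no intensity trend (adjusted p = 0.0676).

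The 10 tested genes of DNA-protein crosslink repair, the other setting of FAM111A, had medians of −0.03, −0.10 and −0.15, with 4, 3 and 5 lower, where 20.6, 19.1 and 21.4% of all tested genes were called lower. TOP2A, a topoisomerase also on the G2/M list, fell (log2 changes of −0.57, −1.18 and −1.88), and TDP1, which removes topoisomerase adducts, had −0.45, −0.71 and −0.91. VCP, an unfoldase, was higher at 12 h (0.19 ± 0.04). Its 9 h call (0.12 ± 0.04) was lost without each 6 h, 9 h or 12 h replicate and without DMSO replicate 1 (0.07). The lower counts at 9 and 12 h depended on single libraries. At 12 h the count of 5 lower became 3 by DESeq2, which called 2507 lower over all genes against 3007 in the main fit.

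Among partners of WDR76, the CUL4-DDB1 ligase and its WD40 receptors showed no common direction. Of 27 tested, 2, 2 and 1 were higher and 7, 5 and 6 lower, with medians of −0.03, 0.04 and 0.04. Over all tested genes 16.1, 16.2 and 18.5% were called higher and 20.6, 19.1 and 21.4% lower. The lower counts of this list were near that share, and its higher counts were below it. DTL fell (log2 changes of −1.85, −2.60 and −3.07), and DCAF15, another receptor, had −0.45, −0.70 and −0.97. DDB2, a damage-recognition receptor known as a p53 target, rose to 1365 ± 6.48 normalized counts at 12 h against 525 ± 25.03 in DMSO (SD, n = 2), with log2 changes of 1.01, 1.37 and 1.38. The number higher depended on scaling and on DMSO libraries, and the number over all genes also moved. After quantile normalization the list had 4, 7 and 9 higher at 6, 9 and 12 h, and all genes 2491, 2770 and 3369. In the main fit all genes had 2263, 2273 and 2603 higher. After TMM the list had 5 higher at 12 h, and all genes 2977.

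Heterochromatin and DNA methylation proteins linked to WDR76 and HELLS were lower as a group. Of 17 tested, 15, 16 and 16 were lower at 6, 9 and 12 h, with medians of −0.70, −0.98 and −1.09. Over all tested genes 20.6, 19.1 and 21.4% were called lower, with medians of −0.01, 0.01 and 0.01. The 13 that are on neither cell-cycle list had medians of −0.27, −0.49 and −0.60, with 11, 12 and 12 lower. UHRF1, which recruits DNMT1 to hemimethylated DNA, fell (log2 changes of −1.56, −2.29 and −2.45), CDCA7, a partner of HELLS, had −1.48, −2.41 and −2.64, and H2AFX, the histone variant H2AX, had −0.82, −1.33 and −1.65.

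The nearest genes in RefSeq order that the table lists, up to 7 genes away, had smaller changes from DMSO than the members beside them. FAM111A-DT, on the opposite strand to FAM111A, had normalized counts of 93.8 and 89.2 in DMSO, 86.3 and 70.1 at 6 h, 86.6 and 74.0 at 9 h and 92.5 and 108 at 12 h. Both 6 h and both 9 h libraries lay below both DMSO libraries, while the 12 h group overlapped DMSO. None of the changes was called, with log2 values of −0.23, −0.19 and 0.13 (standard error 0.16 each, limma adjusted p = 0.295, 0.398 and 0.567). Whether counting used strand is not stated in the labels, and 52 of 7537 words of 50 bases in FAM111A transcripts also occur in FAM111A-DT, so a few reads may have been assigned to either.

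On the other sides of the pair, DTX4, a ubiquitin ligase, was higher at 6 and 9 h (0.26 and 0.25), calls lost without DMSO replicate 1 (0.17 and 0.16). At 6 h the DTX4 call was also lost without 6 h replicate 2 (0.22), and at 9 h without either 9 h replicate (0.25 and 0.24). With all libraries, both DTX4 calls were lost by DESeq2 (adjusted p = 0.0766 and 0.1) and in the authors' deposited DESeq2 values (0.0859 and 0.11). GLYATL1, an acyltransferase, had 1.99 to 13.7 normalized counts over all libraries and was called lower at 12 h (−1.64 ± 0.60, adjusted p = 0.0343), a call lost without any 1 of the DMSO or 12 h libraries. Beside ZNF367, SLC35D2, a nucleotide sugar transporter, was higher at 9 and 12 h (0.25 ± 0.07 and 0.35 ± 0.07), and the 9 h call was lost without either 9 h replicate (0.24 and 0.26). That 9 h call was also lost with all libraries by DESeq2 (adjusted p = 0.0598) and in the authors' deposited DESeq2 values (0.0658). HABP4, on the other side, was lower at 12 h (−0.21 ± 0.08), a call lost without DMSO replicate 1 (−0.11), without 12 h replicate 1 (−0.08), without either replicate at 6 or 9 h, and by DESeq2.

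Beside WDR76, MFAP1, a spliceosome component, was lower at 6 h only (−0.25 ± 0.06, adjusted p = 0.00188), and FRMD5 had log2 changes of 0.21, 0.06 and 0.10, none called here, although the 6 h value was called after quantile normalization and with no intensity trend. Apart from GLYATL1, the neighbours had log2 changes between −0.25 and 0.35, whereas the members changed by −0.997 to −2.44 at 6 h.

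**Figure D5:**
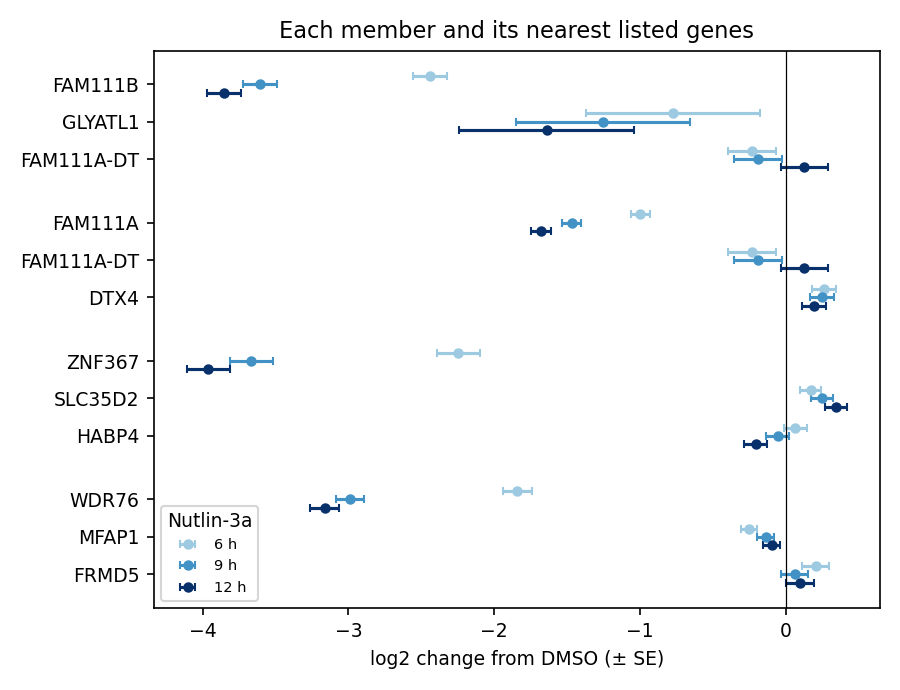
log2 change from DMSO (± standard error) at 6, 9 and 12 h of each member and of the nearest gene on each side that the table lists (FAM111A-DT stands beside both FAM111 genes). The members lie between −0.997 and −3.96, while neighbours other than GLYATL1 (−1.64 at 12 h) lie within −0.25 and 0.35.

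The authors' deposited tables, whose fold changes are DMSO over Nutlin-3a, gave log2 values at 6, 9 and 12 h of 2.45, 3.62 and 3.86 for FAM111B, 2.25, 3.69 and 3.99 for ZNF367, 1.84, 2.99 and 3.15 for WDR76 and 0.997, 1.47 and 1.68 for FAM111A. In the same tables FAM111A-DT had 0.24, 0.19 and −0.13, with adjusted p of 0.563, 0.644 and 0.752 (DESeq2).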

How the data were processed

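RNA of 8 libraries was sequenced with a strand-marking kit, per the labels' protocols. Per the submitters' processing notes, STAR, DESeq2 and hg19 were used, with no versions listed. The sources used here do not give the counter, its strand setting or the annotation. The authors deposited gene counts divided by a size factor per library, a normalized signal and not raw counts. The deposited DESeq2 tables hold, per gene, the log2 fold change, its p-value and adjusted p-value, and a Wald score. The table lists 18216 genes and 3 entries for unassigned reads (28.2 to 29.1% of each library), which were left out. All values (100% within 1e-06) could be divided by what 1 read is worth in that library to give whole numbers, so whole reads could be recovered. A floor of 3 reads is 2.46 to 3.75 normalized counts, for counting error only.

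Groups were tested in limma 3.58.1 (R 4.3.3), with a trend on intensity, from log2(normalized count + 1), in 1 fit of 8 libraries and 4 groups with 4 residual and 15.5 prior degrees of freedom. The fold changes understate those of low genes. A value of 10 or more in 2 or more libraries left 14074 genes, with Benjamini-Hochberg adjustment over all of them and a threshold of 0.05, and genes past it are called. Exact permutation of 2 against 2 cannot go below p = 0.333. Alternatives were pseudocounts of 0.5 and 5, other filters, TMM, quantile normalization, edgeR 4.0.16 and DESeq2 1.42.0 on recovered reads, no trend, 2 groups only, a replicate block and leaving out each library, with group quality weights and crossed 6 h numbers added after seeing the data.

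The members and lists were chosen with earlier results of these data known. Besides members, the text names the 4 nearest profiles of each, the nearest listed gene on each side (RefSeq order), and from each list 3 genes by smallest p at 12 h, plus up to 2 called in the opposite direction to most. It also names the 2 largest called falls and rises at 12 h among ZNF and WDR genes. A planned protein comparison was not made.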

Additional observations from a re-analysis of the deposited data

Results flagged for a closer look

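The genes below differed between 12 h and 6 h of Nutlin-3a by limma (adjusted p at most 0.0468, n = 2 per group), as did many others, with 2031 of all 14074 tested genes higher and 2400 lower at 12 h. Most were named for their 12 h values, so apart from FAM111A these differences are a description and no support for a pattern. Both changes share the DMSO libraries, so the values are those of 12 h against 6 h directly. FAM111A was lower at 12 h (log2 −0.68, both 12 h libraries below both 6 h libraries).

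Among G1/S genes the values were −1.35 for RRM2, −1.34 for ATAD2, −1.15 for MCM3, −1.51 for E2F2, −0.86 for E2F7 and −0.22 for PCNA. Among G2/M genes they were −1.67 for MKI67, −1.55 for ASPM and −1.43 for CCNA2. FEN1 had −0.96, RFC3 −1.25 and RFC4 −0.82, and of crosslink repair TOP2A had −1.31, TDP1 −0.47 and VCP 0.19. Of the CUL4 receptors DTL had −1.22, DCAF15 −0.51 and DDB2 0.37. UHRF1 had −0.89, CDCA7 −1.16 and H2AFX −0.84.

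By symbol, ZNF93 had −0.87, ZNF530 −0.86 and ZNF561 0.34, and WDR62 had −0.90, WDR90 −0.32 and WDR63 0.63. Of the neighbours, HABP4 had −0.27 and MFAP1 0.16. CDKN1A had 0.43. Groups of 2 are too small to test single libraries as outliers.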

How the results depend on the processing

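FAM111A kept its sign and stayed past the threshold against DMSO, at 9 h against 6 h and at 12 h against 6 h in every alternative run (highest adjusted p 0.0162). At 12 h against 9 h it passed in 4, with the same −0.21 in a fit of only the 2 groups and with group quality weights, chosen after seeing the data, and the cause was not tested; leaving out 1 library gave −0.29 to −0.13. Leaving out 1 library, the 12 h change from DMSO was −3.96 to −3.74 for FAM111B, −4.19 to −3.73 for ZNF367 and −3.31 to −3.01 for WDR76. It gave 1494 to 2683 genes higher at 6 h, 1419 to 2640 at 9 h and 1699 to 2947 at 12 h. These are fits with fewer samples. Values near 0, called in neither fit, changed sign. VCP at 6 h was 0.014 with TMM, 0.0131 with edgeR and 0.001 with DESeq2, and −0.0533 to 0.0524 with 1 library left out. HABP4 at 9 h was 0.0071 with quantile normalization and −0.154 to 0.0473 with 1 library left out, and −0.0331 to 0.169 at 6 h. E2F7 at 9 h was −0.0414 to 0.0478 and PCNA at 6 h −0.0105 to 0.0678. Of called genes 57.6% were higher at 12 h after quantile normalization, against 46.4%, and at 9 h 54.9%, against 45.8%.

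Replicate numbers were not shown to pair the samples (correlations of deviations from −0.152 to 0.0914). With a replicate block 2269 genes were higher and 2892 lower at 6 h, 2277 and 2674 at 9 h, and 2616 and 2993 at 12 h; with 6 h numbers crossed, chosen after seeing the data, 2205 and 2839. A DESeq2 adjusted p given as NA for GLYATL1 was left out. Counts under 60 reads, as for ZNF367 at 12 h, limit the precision.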
